A study of Caenorhabditis elegans with 2 samples.

Results

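The 10 genes described here encode the cytoplasmic and nuclear effectors of Wnt signalling in Caenorhabditis elegans: the Dishevelled genes dsh-1, dsh-2 and mig-5, the beta-catenin genes bar-1, wrm-1, sys-1 and hmp-2, the TCF gene pop-1, the APC-related gene apr-1 and the Axin gene pry-1. They were chosen by name, with earlier peak assignments to dsh-2 and mig-5 known, and all 10 were found among the 19973 nuclear protein-coding genes of the WBcel235 annotation. The values that chose them are peak signals of the same lists, so counts over these genes are given as a description, with no test. Chromatin immunoprecipitation followed by sequencing (ChIP-seq) recorded the genomic sites held by PAX-1, a member of the paired-domain family of transcription factors. The animals were whole late embryos of strain OP117, genotype unc-119(ed3) III; wgIs117, males and females pooled, with an eGFP-tagged pax-1 transgene. The series holds 1 group with 2 biological replicates and no untagged group. The labels do not name the promoter of the transgene, and whole embryos do not show in which cells a peak arose.

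Wnt ligands bind Frizzled receptors, and Dishevelled proteins pass the signal on inside the cell. In worms the work of beta-catenin is split between several proteins. BAR-1 acts in the canonical branch, where a complex with Axin (PRY-1) and APC (APR-1) marks it for destruction. WRM-1 lowers nuclear POP-1 and SYS-1 is a coactivator of POP-1 in the branch that makes daughter cells of a division unequal, and HMP-2 links cadherin to actin at the junctions of epidermal cells. The same branch acts in the embryo, where POP-1 levels separate endoderm from mesoderm fate.

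A peak was given to a gene when its summit lay in the gene or within 2 kb of one of its annotated transcript starts. The signal is the authors' value per peak, on a scale the sources used here do not state, and rank 1 is the highest signal in a list. The lists read, on the ce11 build, were a thresholded list of 714 peaks, a pooled list of 30000, and lists of 30000 and 29397 peaks for replicates 1 and 2. The lists give no read counts, so the depth is unknown. Signals are compared within a list only. Peaks of the thresholded list all carried a −log10 q of 1.85 and signals of 58.3 or more.

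Peaks in the thresholded list were found at 3 of the 10 genes, dsh-2, mig-5 and hmp-2, with pooled signals of 121.8, 111.9 and 83.8. By the same rule 1010 of 19973 protein-coding genes (5.06%) had a thresholded peak. Any pooled peak was found at 9 of the 10 genes, against 70.2% of protein-coding genes, and the exception was wrm-1. The pooled list holds background as well as peaks. Outside the threshold, the −log10 q of the highest pooled peak was 1.74 at sys-1, 0.590 at apr-1 and 0.435 at bar-1. It was 0.377 at dsh-1, 0.314 at pop-1 and 0.104 at pry-1, so these calls are weak. A pooled peak that was overlapped by peaks of both replicate lists was found at the same 9 genes, against 39.0% of protein-coding genes. The windows of these genes are long, with a median of 6.68 kb against 4.18 kb, and a longer window can hold more peaks. Per length, thresholded peaks numbered 40.5 per Mb of the effector windows and 9.30 per Mb of all gene windows. The effector rate rests on 3 peaks, and those at dsh-2 and mig-5 were known when the genes were chosen. It is therefore a description and does not measure an excess. Pooled peaks numbered 0.499 and 0.297 per kb. The highest pooled peak had a median rank of 2152 over the 9 genes and of 8286 over the 14027 protein-coding genes with a pooled peak. Among the effector genes, hmp-2 at rank 268 was the last inside the threshold, and sys-1 at rank 847 with a signal of 54.6 was the first outside it.

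**Figure D1:**
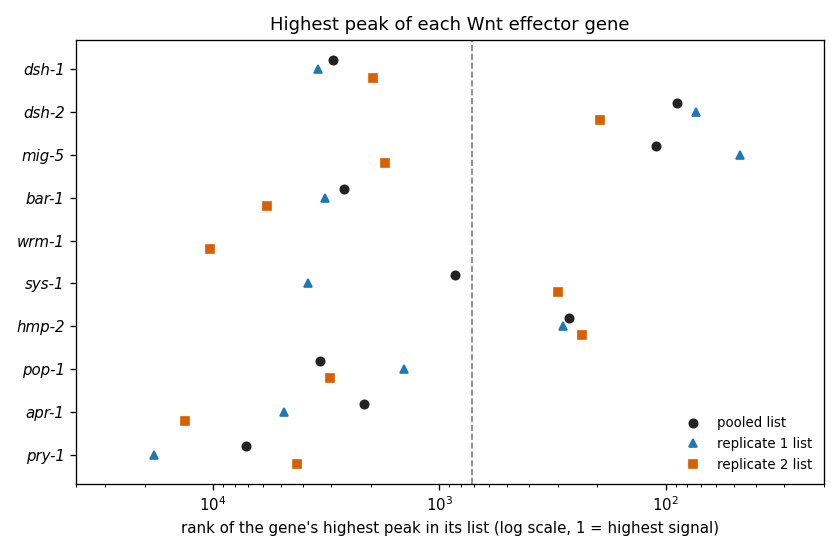
Rank of the highest peak of each of the 10 Wnt effector genes (x axis, log scale, highest signal to the right) in the pooled list and in the lists of replicates 1 and 2; the dashed line marks rank 714. Peaks of dsh-2 and hmp-2 lie right of the line in all 3 lists, those of mig-5 in the pooled list and replicate 1, that of sys-1 in replicate 2, and wrm-1 has a point for replicate 2 alone.

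Sequences of 151 bp around 4 summits are shown to compare the start-proximal peaks of dsh-2 and mig-5 with those of dsh-1 and bar-1, which missed the threshold. The thresholded hmp-2 peak is not shown, nor is the start-proximal sys-1 peak at rank 847, the highest outside the threshold. The 4 windows therefore do not stand for all called and uncalled effector genes. Each sequence is the plus strand of ce11, 5′ to 3′, from the RefSeq sequence of the assembly, and capitals mark matches on either strand to 10 hexamers. These are AGAGAC and CGTCTC, with ACGCAG and GACGCA, then CGAGAC and AGCGCG, and also GAGCGC and GCGCGC, which earlier results of these data found more often at thresholded summits, and CTTTGA and CTTTGT, forms of the core sequence that TCF proteins bind. Several of the first 8 overlap one another, and so are not independent.
dsh-2, chrII:5081325-5081475: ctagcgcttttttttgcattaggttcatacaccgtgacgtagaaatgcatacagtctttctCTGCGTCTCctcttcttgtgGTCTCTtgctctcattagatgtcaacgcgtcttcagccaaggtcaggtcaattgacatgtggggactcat
mig-5, chrII:8185104-8185254: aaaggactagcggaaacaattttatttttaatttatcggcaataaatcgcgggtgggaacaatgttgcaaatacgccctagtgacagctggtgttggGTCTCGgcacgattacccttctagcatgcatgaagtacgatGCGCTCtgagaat
dsh-1, chrII:5225774-5225924: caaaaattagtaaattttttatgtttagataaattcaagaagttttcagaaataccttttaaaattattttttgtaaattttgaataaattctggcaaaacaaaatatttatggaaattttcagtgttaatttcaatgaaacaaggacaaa
bar-1, chrX:7170953-7171103: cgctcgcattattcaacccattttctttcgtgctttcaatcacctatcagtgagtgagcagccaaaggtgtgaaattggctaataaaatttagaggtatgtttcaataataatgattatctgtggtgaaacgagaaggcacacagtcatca

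The dsh-2 window held 4 of the 10 hexamers (AGAGAC and CGTCTC, with ACGCAG and GACGCA), and 3 of them overlapped in the run CTGCGTCTC at chrII:5081386-5081394, 10 bp from the summit. That run, read on both strands, was present in 106 of 696 nuclear thresholded windows (15.2%) and in 409 of 29285 lower pooled windows (1.40%). It was singled out after its place in the dsh-2 window was seen. The mig-5 window held CGAGAC and GAGCGC, and the dsh-1 and bar-1 windows shown held none. Windows of 3 other dsh-1 peaks held matches, AGAGAC at rank 7780, CTTTGA and CTTTGT at rank 7371 and CTTTGA at rank 17685. The dsh-1 peak shown, at rank 5888, was overlapped by a peak of replicate 2 (rank 2407) and by none of replicate 1. The bar-1 peak shown ranked 20762 in the pooled list, with a −log10 q of 0.0298. Over all thresholded windows AGAGAC was present in 31.0%, CGTCTC in 28.3%, ACGCAG in 24.4%, GACGCA in 22.8%, CGAGAC in 17.96%, GAGCGC in 16.7%, AGCGCG in 16.4% and GCGCGC in 13.6%. In the lower windows each of these 8 was present in 1.41% to 5.76%. CTTTGA was present in 5.75% of thresholded and 11.3% of lower windows, and CTTTGT in 7.61% and 8.13%. Around the highest pooled peak of each of the other 7 effector genes with one, CGTCTC was found at sys-1 and CTTTGA at pry-1, and no other match was found. The G+C content of the windows differed as well, with a mean of 43.8% in thresholded and 32.3% in lower windows, and its part in these shares was not tested. It was 45.7% at dsh-2, 44.4% at mig-5 and 44.4% at hmp-2, 19.2% in the dsh-1 window shown and 38.4% in that of bar-1. Around the highest pooled peaks of genes outside the threshold, it was 47.7% at sys-1 and 41.7% at pop-1. At apr-1, bar-1, dsh-1 and pry-1 it was 29.1% to 34.4%. The hmp-2 summit window, on chromosome I, held none of the 10 hexamers.

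In the pooled list and in replicate 1, dsh-2 and mig-5 held the highest peaks of the set, while in replicate 2 hmp-2 and sys-1 ranked above mig-5. At dsh-2 (WBGene00001102, chromosome II, 5078233 to 5081174, minus strand), the thresholded peak spanned 5081228 to 5081571. Its summit was in intergenic sequence, 226 bp upstream of the only annotated start, and its far end overlapped the 3′ end of C04G6.4 at 5081490. The peak ranked 89 in the pooled list. The overlapping peak of replicate 1 had a signal of 84.7 and rank 73, and that of replicate 2 a signal of 38.1 and rank 195. Both replicates therefore placed it among their 714 highest peaks, and no other protein-coding start lay within 2 kb of its summit. A lower pooled peak (signal 39.2, rank 1904) overlapped it, with a summit 425 bp upstream of dsh-2 in the 3′ UTR of the neighbouring gene C04G6.4. Replicate 2 also listed a separate peak there, at rank 1850, and replicate 1 did not. The body of dsh-2 held no pooled peak.

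At mig-5 (WBGene00003241, chromosome II, 8182323 to 8185023, minus strand), the thresholded peak spanned 8185007 to 8185350, with its summit 156 bp upstream of the nearest mig-5 start, at rank 110 of the pooled list. The same summit lay 264 bp upstream of cct-1, a subunit gene of the CCT chaperonin, which runs in the other direction from position 8185443. The summit lies between the starts of both genes. The peak covers the mig-5 start at 8185023 and ends short of the cct-1 start, and the lists do not say to which gene it belongs. Its support was uneven. The overlapping peak of replicate 1 had a signal of 97.9 and rank 47, and that of replicate 2 a signal of 21.8 and rank 1732, outside the 714 highest of that list. Replicate 2 listed 4 peaks within the mig-5 window and replicate 1 listed 1. A further pooled peak of signal 21.1 lay in a coding exon of cct-1.

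At dsh-1 (WBGene00001101, chromosome II, 5214400 to 5225384, minus strand), the longest gene of the set with 7 annotated starts, 7 pooled peaks were listed and none was thresholded. Their signals ran from 17.7 to 33.7. The highest lay in an intron, 1823 bp downstream of the nearest start, at rank 2949 of the pooled list, 3441 of replicate 1 and 8509 of replicate 2. The replicates did not share their highest dsh-1 peak, since the top one of replicate 2 (rank 1953) lay 1304 bp upstream of an internal start and the top one of replicate 1 was the intronic peak. The nearest thresholded peak was 105 kb from the gene. In the pooled list the highest signals were 121.8 at dsh-2, 111.9 at mig-5 and 33.7 at dsh-1. In the list of replicate 2 mig-5 (21.8, rank 1732) and dsh-1 (21.3, rank 1953) were close together, below dsh-2 (38.1, rank 195).

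**Figure D2:**
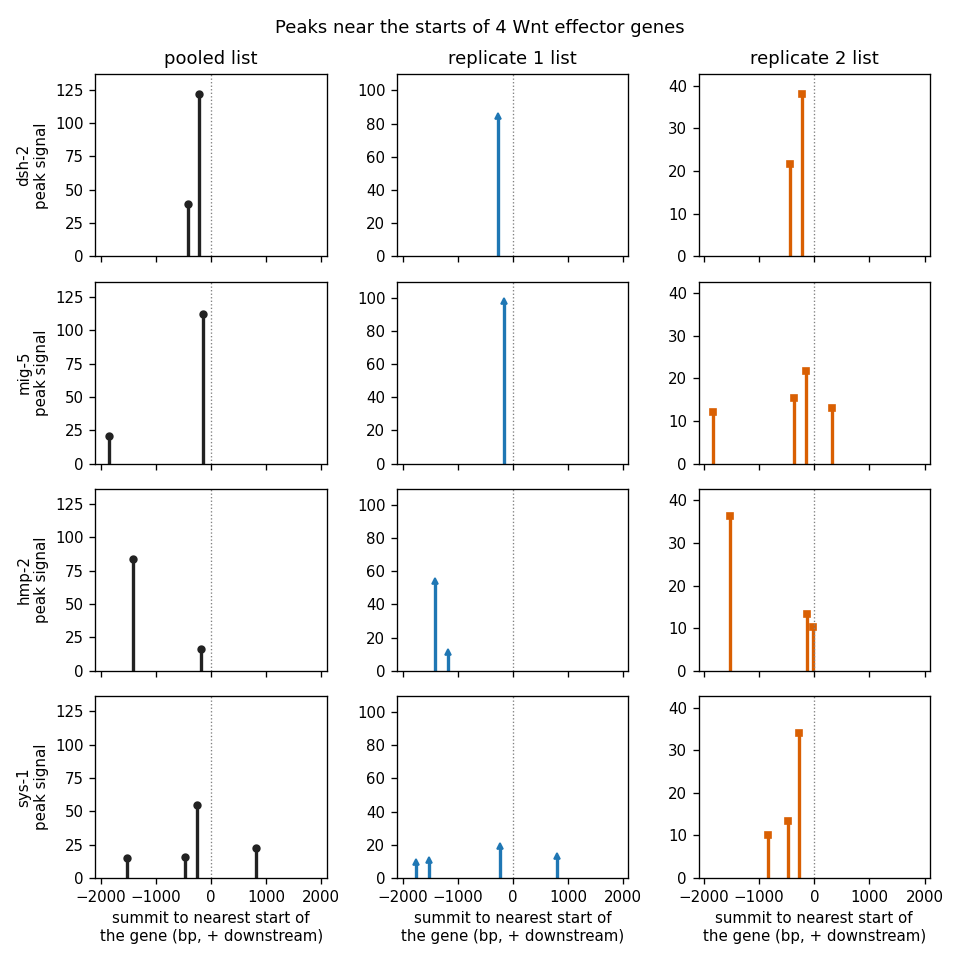
Peak signal (y axis, authors' units, 1 scale per list) against distance of the summit from the nearest start of the gene (x axis, bp, upstream negative) for dsh-2, mig-5, hmp-2 and sys-1 in 3 lists. The dsh-2 and mig-5 peaks stand 226 and 156 bp upstream in the pooled list, that of hmp-2 1410 bp upstream, and the sys-1 peak has rank 297 in replicate 2 and rank 3800 in replicate 1.

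Among the beta-catenin genes, hmp-2 was the one with a thresholded peak. It lay on chromosome I from 14737300 to 14737643, in intergenic sequence, with its summit 1410 bp upstream of hmp-2 (WBGene00001979, 14738882 to 14742671, plus strand). It ranked 268 in the pooled list, 283 in replicate 1 (signal 53.9) and 235 in replicate 2 (signal 36.3), so the replicates gave it like places. The nearest start, however, was that of K05C4.7, 230 bp downstream of the summit. K05C4.7 runs in the same direction as hmp-2 and ends at 14738796, ahead of the hmp-2 start. Closer to hmp-2 itself there was 1 pooled peak, in an intron 179 bp upstream of an internal start, with a signal of 16.7 and rank 24710, overlapped by a peak of replicate 2 alone.

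The sys-1 gene (WBGene00006379, chromosome I, 9980063 to 9984794, minus strand) had a start-proximal peak just under the threshold. Its pooled summit lay 260 bp upstream of the nearest start, in intergenic sequence, and ranked 847. Replicate 2 gave the overlapping peak rank 297 and a signal of 34.1, and replicate 1 gave it rank 3800 and a signal of 19.3. The peak was thus among the 714 highest of replicate 2 and not of replicate 1, the reverse of mig-5. No other protein-coding start was within 2 kb. The other 3 pooled peaks of sys-1 had signals of 15.4 to 22.8.

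At bar-1 (WBGene00000238, chromosome X, 7166005 to 7170625, minus strand), 2 pooled peaks were listed. The higher one (signal 35.0, rank 2624) was in an intron, 4113 bp downstream of the start, and both replicates listed it, at ranks 3207 and 5738 with summits 1 bp away from the pooled one. The peak 403 bp upstream of the start had a signal of 18.1 and rank 20762. At wrm-1 (WBGene00006943, chromosome III, 5722850 to 5727115, plus strand) no pooled peak and no peak of replicate 1 was listed. Replicate 2 listed 2, at ranks 10324 and 15871. Around wrm-1 the pooled list was empty from 5720335 to 5740874, a span of 20.5 kb that touched 7 protein-coding genes. By length it was number 44 of the 4429 spans between pooled peaks on chromosome III, where the median span was 1.55 kb. A stretch without listed peaks says only that no call was made there.

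The TCF gene and the genes of the destruction complex held several low peaks each and no thresholded one. At pop-1 (WBGene00004077, chromosome I, 2822243 to 2830311, minus strand), 9 pooled peaks had signals of 15.9 to 32.4. The highest lay 1041 bp upstream of the start, in an exon of the non-coding RNA gene W10C8.8, with rank 3370. Replicate 1 gave the overlapping peak rank 1435, and replicate 2 listed no peak that overlapped it. A group of 3 intronic pop-1 peaks followed with signals of 28.0 to 30.4. At apr-1 (WBGene00000156, chromosome I, 8050037 to 8055475, plus strand), 5 pooled peaks had signals of 16.4 to 37.4. The highest, at rank 2152, lay 1053 bp upstream of apr-1 in an intron of K04G2.7, whose own start was 356 bp from the summit. The peaks that overlapped it ranked 8153 in replicate 1 and 13242 in replicate 2. The next, of signal 25.9, was intergenic, 207 bp upstream of apr-1 and 490 bp upstream of K04G2.7, and it ranked 6433 in replicate 1 and 21657 in replicate 2. At pry-1 (WBGene00004202, chromosome I, 14172828 to 14179360, minus strand), 4 pooled peaks had signals of 18.4 to 26.0. The highest, at rank 7156, was in a coding exon 6229 bp from the start, at rank 28407 in replicate 1 and 4262 in replicate 2.

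**Figure D3:**
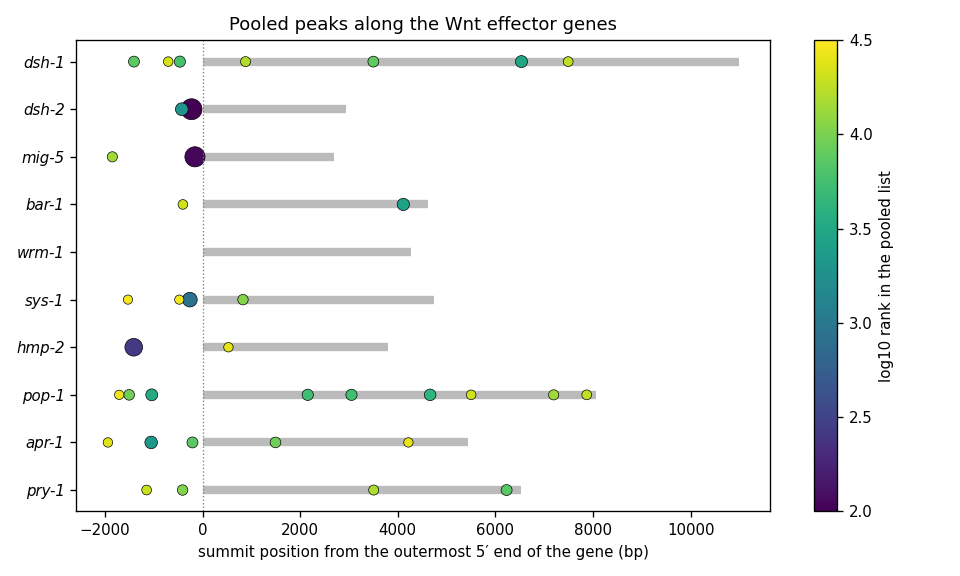
Summits of the 37 pooled peaks of the 10 genes (circles, area growing with signal, colour giving log10 rank) along each gene (grey bar), measured in bp from its outermost 5′ end. The large dark circles of dsh-2, mig-5 and hmp-2 lie upstream of the bars, the peaks of dsh-1 and pop-1 spread over the gene, and wrm-1 has none.

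Over all 10 genes the pooled list held 37 peaks. Of these, 15 summits were intergenic, 13 in introns of the gene itself, 2 in its coding exons, 2 in its 3′ UTR and 5 in another gene. A peak of replicate 1 overlapped 26 of them, a peak of replicate 2 overlapped 28, peaks of both overlapped 20, and 3 were overlapped by neither. The same replicate peak can be counted for neighbouring pooled peaks, as at dsh-2, so these counts are not of separate replicate peaks. Shares of all pooled peaks overlapped by replicate 1 or by replicate 2 are not given here. Peaks of both replicates overlapped 36.5% of all 30000 pooled peaks. The start of the effector gene was the nearest protein-coding start for 27 of the 37. Among the 714 highest peaks of replicate 1, the genes dsh-2, mig-5 and hmp-2 had one (3 of 10, against 5.14% of protein-coding genes). Among those of replicate 2, dsh-2, sys-1 and hmp-2 had one (3 of 10, against 4.94%). The count was thus the same in each replicate, while mig-5 was called in one and sys-1 in the other.

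**Figure D4:**
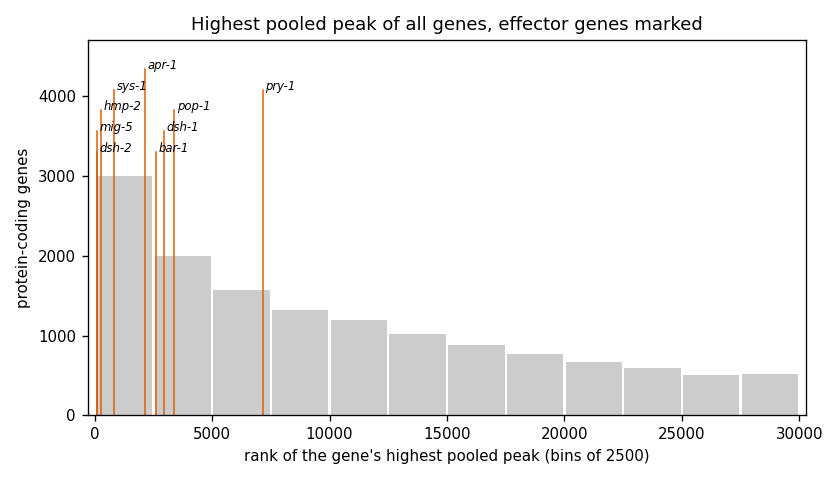
Number of protein-coding genes (y axis) by the rank of their highest pooled peak (x axis, bins of 2500 ranks), for the 14027 genes with one; orange lines mark the 9 effector genes with a pooled peak. Of all genes 21.3% fall in the first bin, and of the effector genes 5 of 9 do (dsh-2, mig-5, hmp-2, sys-1 and apr-1).

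Genes with ranks most like those of each called effector were sought over the pooled and both replicate lists, by the summed absolute difference of the log10 rank of the highest peak, among 10883 genes with a peak in all 3 lists. For dsh-2 these were inx-3, a gap junction gene (ranks 87, 81 and 185, summed difference 0.0779), and Y48B6A.1 and the ribosomal protein gene rpl-43 (ranks 103, 86 and 198 for each, 0.141). For mig-5 the first was cct-1, which shares the peak, followed by cox-5A, a cytochrome c oxidase gene (ranks 117, 60 and 2746, 0.333), and spin-2 (ranks 80, 30 and 1695, 0.343). For hmp-2 the first was K05C4.7, which shares the peak, followed by chat-1 and the histone H2A.Z gene htz-1 (ranks 261, 296 and 227 for each, 0.0460). Y48B6A.1 and rpl-43 had equal ranks in every list, as did chat-1 and htz-1. Each of these pairs may thus have been given the same peak, and its genes are not separate cases.

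The rest of the Wnt pathway was described from a list of 36 genes by role, of which 35 matched an annotated symbol and imb-4 did not. Thresholded peaks were found at 6 of the 35 (17.1%, against 5.06% of protein-coding genes), and pooled peaks at 32 (91.4%, against 70.2%). Their windows had a median of 6.82 kb, against 4.18 kb for all protein-coding genes. Per length, they held 16.7 thresholded peaks per Mb, against 9.30 per Mb of all gene windows. The highest was at mom-1, the Porcupine gene needed to make secreted Wnt, with a signal of 159.0 at rank 41, in an intron 3510 bp from its start. The start of cest-16 was nearer to that summit, at 3320 bp. Next came prkl-1, the Prickle gene of planar polarity (143.6, rank 58, intronic and also within 2 non-coding RNA exons), and lin-23, an F-box gene of the ubiquitin ligase that removes beta-catenin (106.4, rank 132, 936 bp upstream). The highest peaks of these genes ranked 36, 54 and 209 in replicate 1 and 62, 147 and 98 in replicate 2, so each stayed among the 714 highest of both.

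Lower thresholded peaks were at the Wnt ligand gene cwn-2 (signal 70.1, 1106 bp upstream), the Nemo-like kinase gene lit-1 (69.8, intronic) and the p120 catenin gene jac-1 (61.5, intronic and within a small nucleolar RNA gene). The highest cwn-2 peak ranked 407 in replicate 1 and 1089 in replicate 2. The highest lit-1 peak ranked 440 in replicate 1, and in replicate 2 the highest was at another position and ranked 2193. At jac-1 the highest peaks of the replicates ranked 664 and 564, that of replicate 1 at another position than the pooled one. The 6 receptor genes had no thresholded peak, with pooled signals of 43.8 at lin-17, a Frizzled gene, and 36.5 at cam-1, a Ror gene, as the highest. The 6 target genes had none either, with 52.8 at the Hox gene mab-5 and 34.5 at end-1, an endoderm GATA factor gene. As 5.06% of all protein-coding genes had a thresholded peak, no call among 6 genes does not set either role apart. In the remaining roles, pooled signals outside the threshold were 55.5 at the casein kinase gene kin-19, 53.9 at the alpha-catenin gene hmp-1 and 45.0 at the 14-3-3 gene par-5. The par-5 summit lay in an intron of M117.3, whose start was the nearest, at 408 bp. The ligand egl-20 had 35.1, the extracellular inhibitor gene sfrp-1 28.9, the planar polarity gene vang-1 28.6 and the Wnt secretion gene mig-14 27.2. No pooled peak was listed at mom-2, tap-1 or fmi-1.

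**Figure D5:**
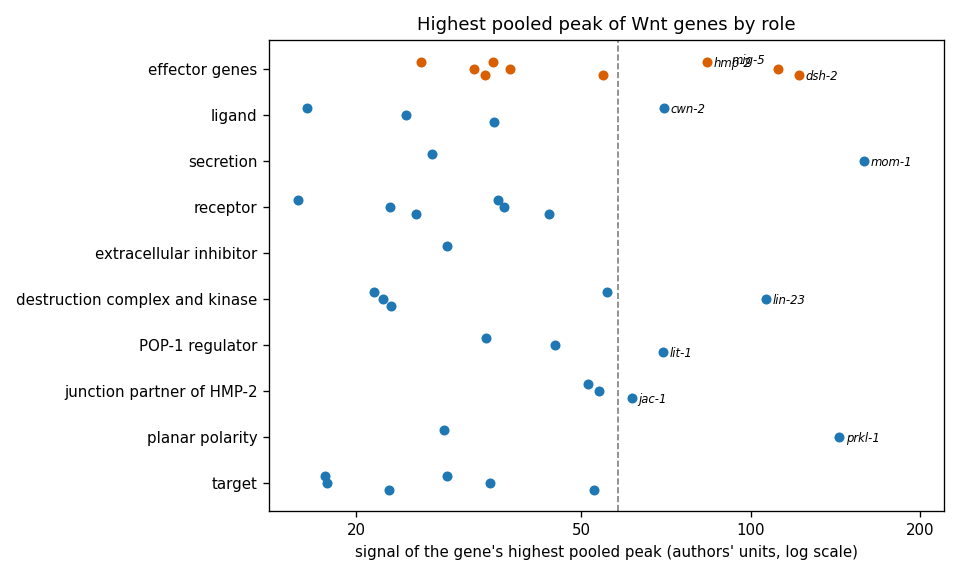
Signal of the highest pooled peak (x axis, authors' units, log scale) of the Wnt effector genes (orange) and of the other Wnt genes by role (blue), 1 point per gene with a pooled peak; the dashed line marks the lowest thresholded signal, 58.3. Right of the line lie dsh-2, mig-5 and hmp-2 and 6 other genes, among them mom-1 (159.0) and prkl-1 (143.6). No receptor or target gene does, with 6 genes in each role and 5.06% of all protein-coding genes called.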

How the data were processed

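PAX-1 ChIP-seq peaks of late embryos were read from 4 narrowPeak lists on ce11. Per the labels and the deposited file listing, each replicate list, and the pooled one, holds background as well as peaks, was called with a control alignment and was meant for the irreproducible discovery rate (IDR) procedure, whose thresholded list derives from all 3. Which aligner, caller and IDR threshold were used is not given in the sources used here. Per peak, the signal and the −log10 q are the authors' deposited values. The control was not analysed here, and unequal copy number between control and sample can add or remove peaks. Lists on ce10 were not used, and no coordinate was converted. No deposited column of per-sample values was left unmatched (0).

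Genes, starts and UTRs came from the Ensembl 115 annotation of WBcel235, the same assembly as ce11, and windows from the RefSeq sequence. Positions are 1-based. Overlap of peaks means at least 1 bp. Hexamers were searched within 75 bp of a summit. No gene was tested, since members, lists and hexamers were chosen with earlier results of these data known. All 10 members are named, as are other Wnt genes with a thresholded peak or among the 2 highest of their role, genes that share a peak, and the 3 most like each called member. Alternatives were other distances, peak overlap in place of the summit, start windows without the gene body, the upper 357 thresholded peaks, the nearest start, either replicate alone and other motif windows. Window counting was tested on simulated data. Python 3.11.15, numpy 2.4.6, pandas 2.3.3 and matplotlib 3.10.9 were used.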

Additional observations from a re-analysis of the deposited data

How the results depend on the processing

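The count of 3 effector genes with a thresholded peak was 2 with starts within 1 kb and 2 under the nearest start within 1 kb, where hmp-2 dropped out, 5 with starts within 5 kb, where sys-1 and apr-1 came in, and 4 when 1 bp of the peak sufficed, where sys-1 came in. The 6 other Wnt genes with a thresholded peak became 3 in the 357 highest thresholded peaks and 2 under the nearest start within 1 kb. Shares of all protein-coding genes under these changed rules are not given, so these counts cannot be set against all genes. With the 714 highest peaks of 1 replicate alone, the effector count was 3 with either replicate, losing mig-5 and gaining sys-1 with replicate 2, and the other count 5 to 8. The median best rank of the effector genes, 2152, was 2949 within 1 kb, 1515.5 within 5 kb and 2491.5 to 3207 in the list of 1 replicate alone. The 6 hexamer matches in the windows of dsh-2, mig-5 and hmp-2 were 5 within 50 bp and 7 within 150 bp of the summits. The cause of these changes was not tested. No paired analysis was possible because both replicates belong to 1 group. The depth is unknown, and a gene without a listed peak may hold signal below the lists.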

Other observations

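Thresholded peaks with summits outside the gene and its 2 kb start windows, but within 5 kb of a start, were seen at 2 effector genes. One lay on chromosome I from 9979744 to 9980087 and overlapped the 3′ end of sys-1. Its summit was 147 bp beyond that end and 254 bp from the start of eif-3.C, a translation initiation factor gene. Its signal was 82.9 (rank 273), and it ranked 304 in replicate 1 and 316 in replicate 2. The other, of signal 72.0 and rank 407, was intergenic on chromosome I from 8046101 to 8046444, 3764 bp upstream of apr-1, with K04G2.7 as the gene of the nearest start. It ranked 721 in replicate 1 and 283 in replicate 2. For the other effector genes without a thresholded peak, the nearest one was 14.6 kb from bar-1, near the start of the laminin gene lam-2, 37.0 kb from pry-1, 43.7 kb from wrm-1, 46.3 kb from pop-1 and 105 kb from dsh-1. Those nearest to wrm-1 and pop-1 had the ribosomal protein genes rps-12 and rpl-1 as the nearest starts.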
